A study of Sus scrofa with 24 samples.

Results

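Collagen genes were followed across 4 tissues of the same young pigs. They are the genes that the array names COL, a type number, A and a chain number. The array names 34 such genes (77 probes) among 46633 gene names (60305 probes). Each gene is represented by its brightest probe, the probe with the highest mean over all arrays. A gene was analysed if, in 1 or more tissues, the scanner software called that probe well above background on each of the 6 arrays. That left 27 of the 34 collagen genes, among 31208 gene names tested: 8 of 10 fibrillar, 5 of 6 basement membrane and 14 of 18 other collagens. The 7 genes left out were COL2A1, COL4A4, COL9A1, COL9A2, COL10A1, COL11A1 and COL28A1. Nearest to passing were COL9A1 and COL11A1, well above background on 5 of 6 Peyer arrays. Of the 27 genes, 20 passed that call on each of the 24 arrays, and COL4A3 and COL19A1 entered through Spleen alone.

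Collagens are secreted or membrane proteins in which chains with a regularly repeated glycine wind into a triple helix. Fibrillar collagens (types I, II, III, V, XI, XXIV and XXVII) build the rope-like fibres that give an organ its tensile strength, and are made mainly by fibroblasts and related stromal cells. Basement membrane collagens (types IV, XV and XVIII) form or join the sheets under epithelia and around vessels and muscle fibres. The other collagens decorate fibrils, form beaded filaments or anchoring fibrils, or stay in the cell membrane. In spleen, stromal reticular fibres and a muscular capsule carry much of the collagen, in the gut wall the submucosa and muscle layers do, and healthy liver has a sparse matrix around its sinusoids and portal tracts.

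The tissues were Peyer (jejunum that holds Peyer's patches, the lymphoid follicles of the gut wall), Spleen, Jejunum (jejunum without such patches) and Liver. All came from the same 6 crossbred pigs, aged 10 weeks, weaned at 28 days and fed freely, so each group has n = 6 arrays and every animal gave all 4 tissues. The labels name no treatment or allele that differs between the animals. Tissue pieces were flash-frozen, and 200 ng of total RNA from each gave Cy3-labelled cRNA for a one-colour Agilent array. Spleen and Liver shared slides, as did Peyer and Jejunum, but no slide held both pairs.

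A log2 level below is the log2 processed signal minus that array's 75th percentile, so that 0 is the 75th percentile of the array. Differences are between mean log2 levels, first tissue minus second, with the standard error (SE) from a limma fit. A gene was called where the adjusted p was under 0.05 and the log2 difference at least 1 in size, a fold of 2. Levels of different genes come from different probes and were not set against each other. In whole tissue, fewer cells of a type and less RNA per cell cannot be told apart.

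The labelled tissues matched their markers. Hepatocyte genes averaged 9.0 on Liver arrays and at most 0.83 on any other array, with -3.52 to 0.83 on Spleen arrays. Intestinal epithelial genes averaged 4.97 to 6.70 on Peyer and Jejunum arrays, against at most -2.49 on Spleen and Liver arrays. That -2.49 was the Spleen array of animal 73, where the other Spleen arrays were at -7.48 to -5.95. B cell genes averaged 2.63 to 3.15 on 5 Peyer arrays and 1.22 to 1.98 on Spleen arrays. The Peyer array of animal 71 stood apart, with a B cell mean of -1.26. Collagen calls between Peyer and another tissue that change without it are given both ways. Calls of other genes were not checked without it. The array's 75th percentile signal ranged from 275.4 to 2262, and 60.4% to 75.6% of probes were well above background.

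Spleen had the highest mean level for 12 of the 27 collagen genes, Jejunum for 10, Liver for 4 and Peyer for 1. Liver had the lowest mean for 13 genes, Peyer for 9, Spleen for 5 and Jejunum for none. No share over all gene names was taken for these ranks, and the 12 include COL4A3 and COL19A1. Nothing is read from the ranks. Slide set and tissue cannot be told apart across the 4 tissues, in the ranks or in the counts that follow. A gene was called against each of the other 3 tissues at once in few cases. Spleen was higher than all others for COL4A3, COL11A2, COL19A1 and COL21A1 (4 of 27; 6.2% of all gene names). COL4A3 and COL19A1 passed the background filter through Spleen alone, so nothing is read from this count. Spleen was lower than all others for COL14A1 and COL29A1 (2 of 27; 4.41%). Liver was higher for COL18A1 and COL29A1 (2 of 27, against 9.01% of all gene names) and lower for COL6A3 and COL7A1 (2 of 27, against 9.01%). With the authors' deposited values, COL18A1 and COL7A1 were not called between Liver and Jejunum or Peyer, nor COL6A3 between Liver and Peyer. Peyer was lower than all others for COL11A2 and COL4A3 (2 of 27; 1.17%), of which COL4A3 was well above background on no Peyer, Jejunum or Liver array. COL11A2 was so on 3 of 6 Peyer arrays. Peyer was higher than all others for 0 genes (0.532%), and Jejunum was higher for 0 (2.5%) and lower for 0 (0.923%).

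**Figure D1:**
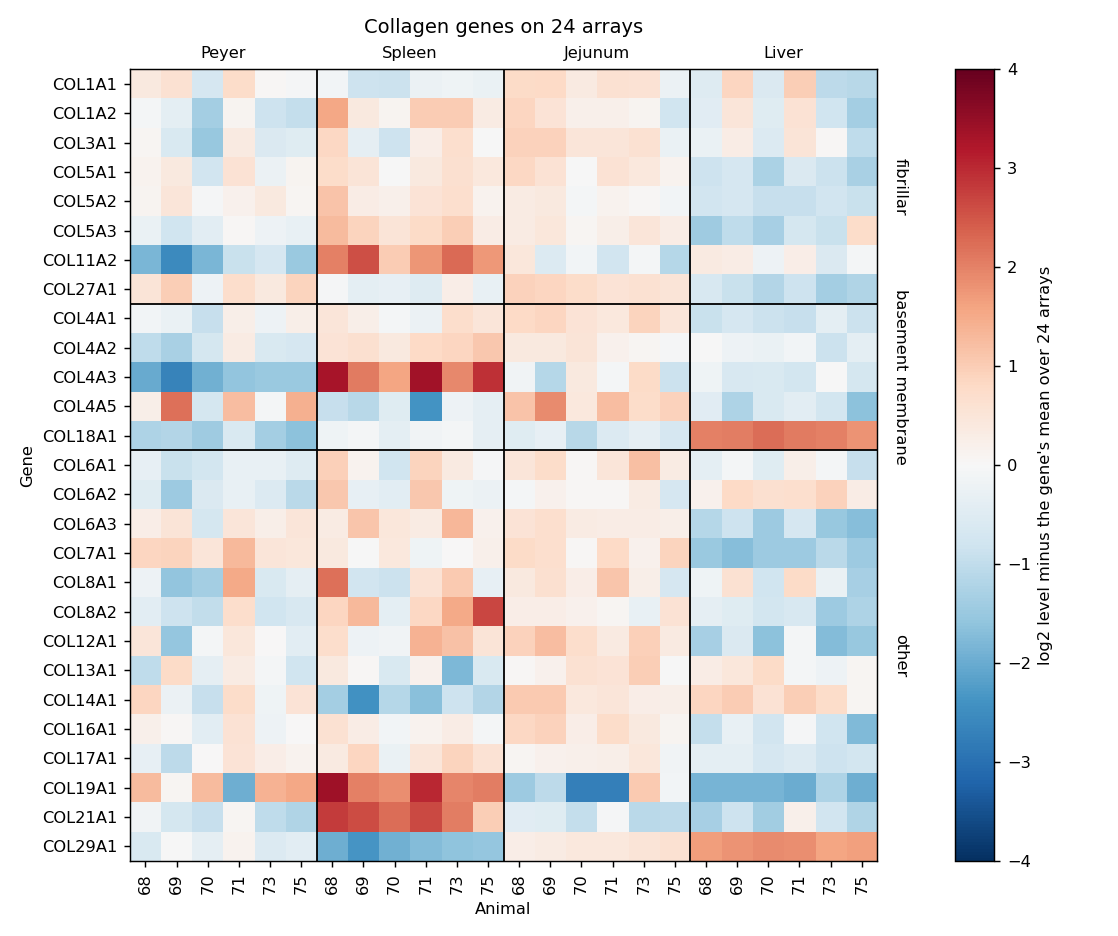
Heat map of the 27 collagen genes (rows, by class) on 24 arrays (columns, by tissue and animal). The colour is the log2 level minus the gene's mean over the 24 arrays, from -4 (blue) to 4 (red). COL18A1 and COL29A1 are red in Liver, COL4A3, COL11A2, COL19A1 and COL21A1 are red in Spleen, and COL14A1 and COL29A1 are blue in Spleen.

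Among the fibrillar genes, COL1A1 and COL1A2 encode the chains of type I collagen, the main fibre protein of tendon, bone and stroma. COL1A1 levels were 2.96 to 4.35 (median 3.84) in Peyer, 2.77 to 3.53 (median 3.38) in Spleen, 3.40 to 4.44 (median 4.21) in Jejunum and 2.51 to 4.60 (median 3.07) in Liver. All 4 ranges overlapped, and no comparison called the gene. COL1A2 levels were 1.53 to 2.98 (median 2.27) in Peyer, 2.99 to 4.43 (median 3.58) in Spleen, 2.09 to 3.74 (median 3.09) in Jejunum and 1.51 to 3.47 (median 2.42) in Liver. Every Spleen array was above every Peyer array, while Spleen, Jejunum and Liver overlapped. COL3A1, whose type III collagen makes reticular fibres, had levels of 2.41 to 4.27 (median 3.38) in Peyer, 3.08 to 4.74 (median 4.04) in Spleen, 3.66 to 4.85 (median 4.48) in Jejunum and 2.91 to 4.43 (median 3.81) in Liver. Its order was Jejunum, Spleen, Liver, Peyer, and neighbours in that order overlapped.

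Type V collagen chains join type I fibrils and govern their diameter. COL5A2 levels were 1.51 to 2.05 (median 1.71) in Peyer, 1.70 to 2.70 (median 1.97) in Spleen, 1.46 to 1.96 (median 1.65) in Jejunum and 0.63 to 0.88 (median 0.72) in Liver. The Liver range lay below the other 3, which overlapped. COL5A1 levels were -1.96 to -0.60 (median -1.05) in Peyer, -1.19 to -0.46 (median -0.71) in Spleen, -1.21 to -0.37 (median -0.69) in Jejunum and -2.47 to -1.77 (median -2.02) in Liver. Liver was again lowest, and only Peyer overlapped it. COL5A3 ran from -4.18 to -3.36 in Peyer, -3.09 to -2.14 in Spleen and -3.30 to -2.92 in Jejunum. In Liver COL5A3 was well above background on 4 of 6 arrays and ran from -4.81 to -2.67.

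COL11A2 and COL27A1 encode fibrillar chains best known from cartilage. COL11A2 levels were -3.49 to -1.92 (median -2.62) in Spleen, above every array of the other tissues, which ran from -7.04 to -5.17 in Peyer, -5.64 to -4.04 in Jejunum and -5.10 to -4.16 in Liver. Its probe was well above background on 3 of 6 Peyer arrays and 5 of 6 Liver arrays. It is the only COL11A2 probe and holds the glycine repeat searched for below, so no other probe checks these levels. COL27A1 ran from -0.77 to 0.43 (median 0.04) in Peyer, -1.08 to -0.30 (median -0.88) in Spleen, -0.06 to 0.36 (median 0.11) in Jejunum and -1.93 to -1.20 (median -1.59) in Liver, so that the Liver range lay below all others.

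Of the basement membrane genes, COL4A1 and COL4A2 encode the chains of the common type IV network, and lie next to each other in the RefSeq annotation of the pig genome (Sscrofa11.1). COL4A1 levels were 0.04 to 1.21 (median 0.82) in Peyer, 0.74 to 1.68 (median 1.33) in Spleen, 1.39 to 1.86 (median 1.65) in Jejunum and 0.06 to 0.58 (median 0.11) in Liver. COL4A2 levels were 1.14 to 2.76 (median 1.73) in Peyer, 2.81 to 3.51 (median 3.15) in Spleen, 2.37 to 2.95 (median 2.71) in Jejunum and 1.56 to 2.41 (median 2.20) in Liver. Both genes had higher mean levels in Spleen and Jejunum than in Liver, and the lowest mean was in Liver for COL4A1 and in Peyer for COL4A2.

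COL18A1 encodes a basement membrane collagen whose end fragment is endostatin. Its levels were 3.48 to 4.52 (median 3.82) in Peyer, 4.74 to 5.06 (median 4.95) in Spleen, 4.01 to 4.81 (median 4.60) in Jejunum and 6.91 to 7.36 (median 7.15) in Liver. Liver stood clear of every other array, while Spleen overlapped Jejunum and Jejunum overlapped Peyer. COL4A3 and COL4A5 encode chains known from the kidney filter. COL4A3 ran from -5.00 to -3.22 in Spleen and in the other tissues none of its arrays was well above background. COL4A5 was well above background on all Peyer and Jejunum arrays, on 4 of 6 Spleen arrays and on 3 of 6 Liver arrays, with medians of -3.31 in Peyer, -4.73 in Spleen, -3.00 in Jejunum, against -4.70 in Liver.

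Among the other collagens, type VI collagen makes beaded filaments close to cells. COL6A3, one of its chains, had levels of 1.09 to 2.31 (median 2.18) in Peyer, 1.98 to 3.12 (median 2.21) in Spleen, 2.04 to 2.48 (median 2.12) in Jejunum and 0.11 to 1.12 (median 0.51) in Liver. Only the lowest Peyer array, that of animal 70, reached into the Liver range. COL6A1 medians were -2.76 in Peyer, -2.09 in Spleen, -1.84 in Jejunum, against -2.59 in Liver. COL6A2 medians were -4.29 in Peyer, -3.92 in Spleen, -3.66 in Jejunum, against -3.06 in Liver. Its further tested probes, which share a sequence, were instead lowest in Liver, with means of -5.07 and -5.25, against -3.51 and -3.58 in Jejunum. They were well above background on 3 and 2 of the Liver arrays.

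COL7A1, whose type VII collagen forms anchoring fibrils under epithelia, had levels of 2.02 to 2.85 (median 2.25) in Peyer, 1.39 to 1.99 (median 1.68) in Spleen, 1.61 to 2.46 (median 2.28) in Jejunum and -0.14 to 0.48 (median 0.10) in Liver. The Liver range lay below the other 3. COL29A1, a name once used for the human gene now called COL6A5, had levels of -0.89 to -0.12 (median -0.67) in Peyer, -2.64 to -1.82 (median -2.10) in Spleen, -0.02 to 0.33 (median 0.14) in Jejunum and 1.30 to 1.63 (median 1.46) in Liver. No 2 tissues overlapped, and the order was Liver, Jejunum, Peyer, Spleen.

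Fibril-associated collagens sit on the surface of fibrils. COL14A1, one of them, had levels of -0.02 to 1.75 (median 1.08) in Peyer, -1.52 to 0.08 (median -0.37) in Spleen, 1.12 to 1.94 (median 1.35) in Jejunum and 0.96 to 1.92 (median 1.69) in Liver. Spleen was the low tissue and overlapped only Peyer. COL21A1 showed the reverse, with 0.05 to 1.87 (median 1.48) in Spleen, against -2.13 to -0.86 in Peyer, -2.02 to -0.99 in Jejunum and -2.33 to -0.73 in Liver. COL12A1 had medians of -0.42 in Peyer, 0.23 in Spleen, 0.43 in Jejunum, against -1.81 in Liver. COL16A1 had medians of -0.92 in Peyer, -0.73 in Spleen, -0.39 in Jejunum, against -1.74 in Liver. For both genes Liver was lowest, and every Jejunum array was above every Liver array.

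COL19A1, a further fibril-associated collagen, ran from -3.42 to -1.90 in Spleen, where all 6 arrays were well above background. It was so on 5 of 6 Peyer arrays, on 2 of 6 Jejunum arrays and on no Liver array. In Peyer its level was -5.21 to -3.74 on 5 arrays and -7.23 on the array of animal 71, within the Jejunum range of -8.02 to -4.24.

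COL8A1 and COL8A2 encode the short chains of type VIII collagen, found in vessel walls. COL8A1 spread widely within each tissue, from -2.10 to 1.0 in Peyer, -1.37 to 1.67 in Spleen, -1.19 to 0.58 in Jejunum, against -1.84 to 0.23 in Liver, and no comparison over all 24 arrays called it. COL8A2 ran from -4.04 to -2.33 in Peyer, -3.45 to -0.38 in Spleen, -3.33 to -2.46 in Jejunum, against -4.50 to -3.41 in Liver. COL13A1, a membrane-spanning collagen, was not called in any comparison either, with means between -5.59 and -4.79, and was well above background on 1 of 6 Spleen arrays and 1 of 6 Liver arrays.

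**Figure D2:**
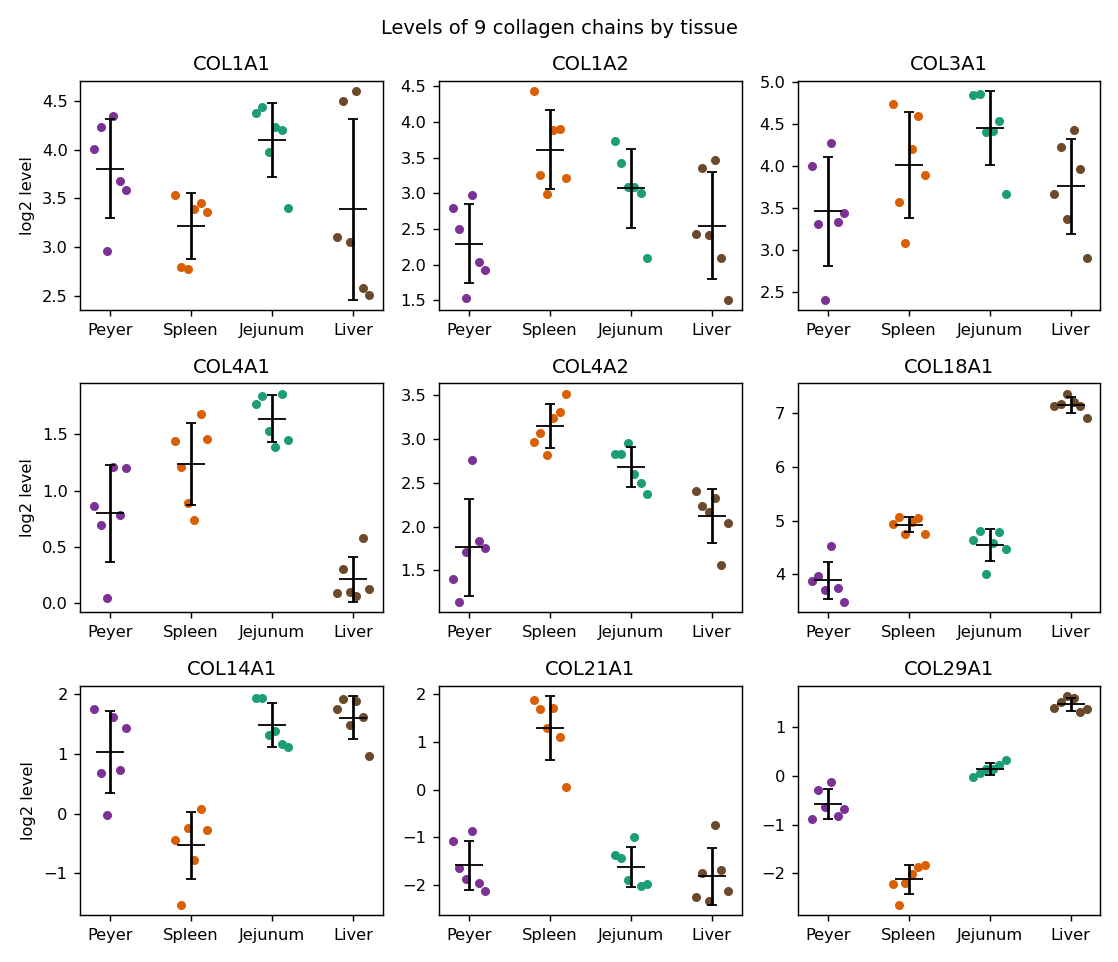
Log2 levels (y axis) of 9 collagen chains in Peyer, Spleen, Jejunum and Liver (x axis). Points are animals, horizontal ticks are means and bars are SDs (n = 6). COL18A1 and COL29A1 are highest in Liver without overlap, COL21A1 is highest in Spleen, and COL1A1 in Liver splits between 2 arrays near 4.5 to 4.6 and 4 arrays at 2.51 to 3.10.

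Spleen exceeded Liver for most collagens. Of the 27 genes, 15 were called higher and 3 lower in Spleen, where 38.5% of all gene names were called (22.7% higher and 15.8% lower). The median collagen difference was 1.03, against 0.15 over all probes. The split was 5 higher and 0 lower of 8 fibrillar genes, 3 and 1 of 5 basement membrane genes, and 7 and 2 of 14 others. Those higher include COL4A3 and COL19A1, which passed the background filter through Spleen alone. For genes well above background on every Spleen and Liver array, the split was 3 and 0 of 6 fibrillar genes. It was 2 and 1 of 3 basement membrane genes and 5 and 2 of 11 others. Of the 20 genes well above background on all 24 arrays, 10 were higher and 3 lower, with a median of 1.0. Each slide gave the same direction, with collagen medians of 1.0, 0.71 and 1.27 on slides 1, 2 and 3.

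All 3 type V chains were called higher in Spleen than in Liver. COL5A1 was higher in Spleen by 1.36 ± 0.20 (SE; adjusted p = 1.9e-06) and COL5A2 by 1.32 ± 0.15 (adjusted p = 2.5e-08), each in 6 of 6 animals. COL5A3 was higher by 1.55 ± 0.25, and COL11A2 by 1.89 ± 0.30. COL1A2 was called higher by 1.07 ± 0.33 (adjusted p = 0.0069) in 5 of 6 animals, and all 4 of its probes were called higher, by 1.07 to 2.81. Its partner COL1A1 was not called, at -0.17 ± 0.32 (adjusted p = 0.65), with its probes at -0.20 and -0.17. COL3A1 was not called either, at 0.25 ± 0.32 (adjusted p = 0.49), and COL27A1 fell under the fold limit at 0.79 ± 0.18.

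COL4A1 was higher in Spleen by 1.03 ± 0.18 (adjusted p = 2.7e-05) and COL4A2 by 1.03 ± 0.20 (adjusted p = 9.9e-05), each in 6 of 6 animals. These calls lie at the fold limit, and both were lost when arrays were centred on their medians, at 0.91 for each gene, as was that of COL1A2 at 0.96. COL4A3, which passed the background filter through Spleen alone, was at least 1.89-fold higher in Spleen. That bound is set by the dimmest probes well above background on the Liver arrays. It lies under the fold limit, and the call of COL4A3 is not read as support. COL18A1 went the other way and was lower in Spleen by 2.24 on the log2 scale (difference -2.24 ± 0.15, adjusted p = 3.8e-12). Spleen and Liver did not differ beyond the error for COL4A5, at -0.06 ± 0.41 (adjusted p = 0.90).

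The largest differences between Spleen and Liver were among the other collagens. COL21A1 was higher in Spleen by 3.10 ± 0.30 (adjusted p = 4e-09). COL19A1 was at least 4.21-fold higher in Spleen, but passed the background filter through Spleen alone, so its call is not read as support. COL8A2 was higher by 1.94 ± 0.35, COL6A3 by 1.84 ± 0.22, COL12A1 by 1.73 ± 0.34 and COL7A1 by 1.59 ± 0.17, with adjusted p between 1.3e-08 and 0.00011. COL29A1 was lower in Spleen, at -3.60 ± 0.14 (adjusted p = 2e-16), and COL14A1 at -2.13 ± 0.28 (adjusted p = 4.7e-07). All 7 tested COL6A3 probes were called higher, and all 11 COL14A1 probes were called lower. COL6A1 and COL6A2 were not called, at 0.54 ± 0.25 for COL6A1 and at -0.42 ± 0.26 for COL6A2, but the COL6A2 probes ranged from -0.42 to 1.30 and 2 of 3 were called higher.

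With normexp background correction 11 genes were called between Spleen and Liver, in place of 18. COL4A3, COL5A3, COL8A2, COL11A2, COL17A1, COL19A1 and COL4A1 lost the call, with differences of 0.27 to 0.98. Smooth muscle markers moved with the same comparison: their 9 tested genes averaged 3.98 to 4.89 on Spleen arrays and 0.19 to 1.06 on Liver arrays, with 8 of 9 called higher and MYH11 above background on no Liver array. The fibroblast list split, with 3 of 7 genes higher and 2 lower, and averaged -0.86 to 0.26 in Spleen and 0.08 to 0.76 in Liver. Of 6 endothelial markers 1 was higher and 4 were lower, with a median of -1.33 and averages of -0.99 to -0.09 in Spleen and 0.45 to 0.91 in Liver. The part of these cells in the collagen differences was not tested.

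**Figure D3:**
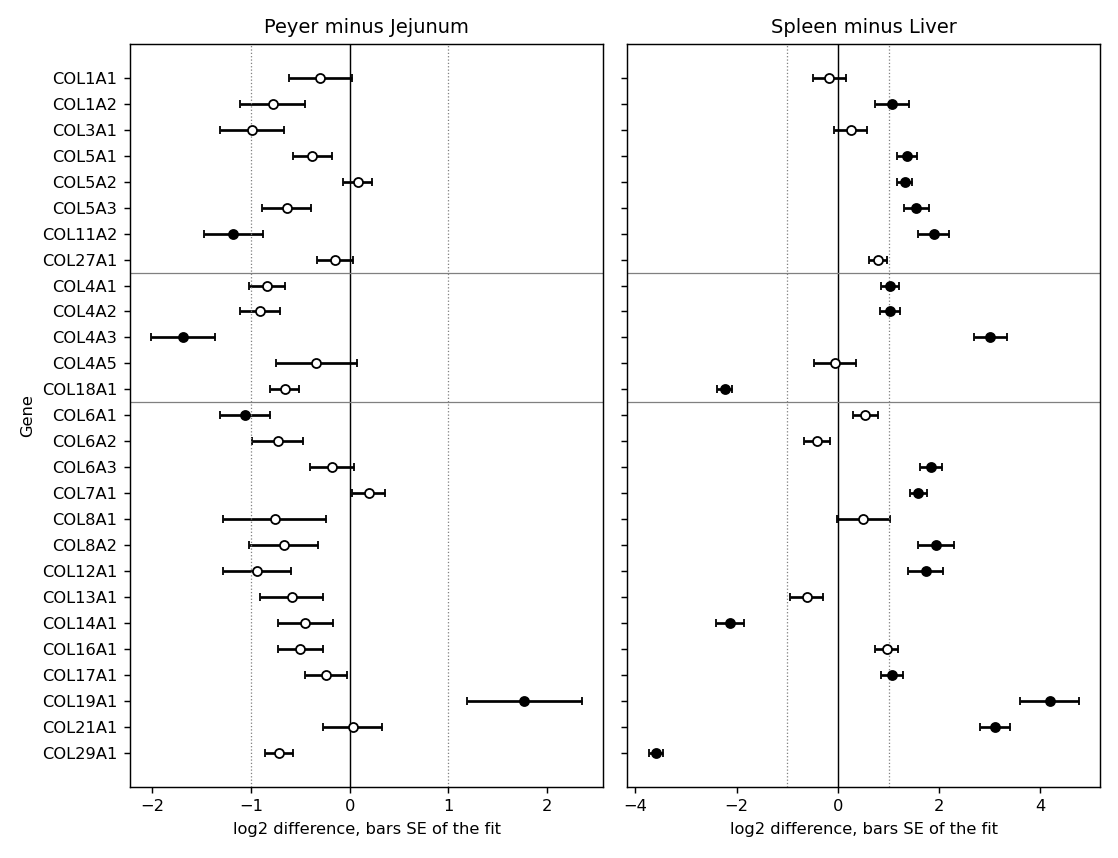
Log2 difference (x axis) of each collagen gene (rows) for Peyer minus Jejunum and Spleen minus Liver, with the SE of the fit as bars. Filled points were called, open points were not, dotted lines mark differences of -1 and 1, and grey lines part the fibrillar, basement membrane and other genes. Of 27 genes, 23 lie left of 0 for Peyer minus Jejunum and 20 right of 0 for Spleen minus Liver.

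Most collagen genes had lower mean levels in Peyer than in Jejunum, by small differences. The median difference was -0.64 over 27 genes, against -0.16 over all probes. Of the 27 differences 23 were below 0, and 22 below the median of all probes. At an adjusted p under 0.05 alone, 11 genes were lower and 1 higher, 12 of 27 in all, where 40.2% of all gene names passed (16.9% higher and 23.3% lower). With the fold limit, 1 was called higher and 3 lower, 4 of 27 in all, close to the 13.3% of all gene names called (5.79% higher and 7.56% lower). Among all called probes 39.8% were higher, against 59.6% under median centring and 53.1% under quantile normalization. Under median centring 22 of the 27 collagen differences were below 0, with a median of -0.46 against 0.02 over all probes. Under quantile normalization 23 were below 0, with a median of -0.47 against -0.04. Collagen medians were -0.80, -0.45 and -0.46 on slides 4, 5 and 6.

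The basement membrane genes had a median difference between Peyer and Jejunum of -0.84, or -0.75 over the 4 genes well above background on all 12 arrays. COL4A1 was -0.84 ± 0.18 (adjusted p = 0.0011) in 6 of 6 animals without overlap, COL4A2 was -0.91 ± 0.20 (adjusted p = 0.0014) in 5 of 6, and COL18A1 was -0.66 ± 0.15 (adjusted p = 0.0016) in 6 of 6. None of the 3 reached the fold limit. COL4A3 did, at -1.69, but was well above background on no array of either tissue, so no fold is given.

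Fibrillar genes had a median difference of -0.51. COL3A1 was at -0.99 ± 0.32 (adjusted p = 0.016), just short of the fold limit, and COL11A2 was called lower in Peyer at -1.18 ± 0.30 (adjusted p = 0.0043). The COL11A2 probe was well above background on 3 of 6 Peyer arrays. COL1A1 at -0.30 ± 0.32, COL1A2 at -0.78 ± 0.33, COL5A1 at -0.38 ± 0.20 and COL5A2 at 0.08 ± 0.15 did not pass the adjusted p. Among the others, COL6A1 was called lower at -1.06 ± 0.25 (adjusted p = 0.0022) in 6 of 6 animals without overlap. COL6A2 was at -0.73 ± 0.26 (adjusted p = 0.031) and COL6A3 at -0.18 ± 0.22 (adjusted p = 0.53). Over all tested probes, 2 of 3 for COL6A2 (-1.09 to -0.73) and 2 of 7 for COL6A3 (-1.37 to -0.18) were called lower. So were 3 of 11 for COL14A1 (-1.09 to -0.43) and 1 of 4 for COL7A1 (-1.02 to 0.19). The probes of COL1A2 (-0.78 to 0.04), COL5A2 (-0.39 to 0.27), COL17A1 (-0.91 to 0.47) and COL21A1 (-0.15 to 0.08) lay on both sides of 0, and none was called. COL29A1 was at -0.72 ± 0.14 (adjusted p = 0.00047), also without overlap.

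COL19A1 was the only collagen called higher in Peyer, at 1.77 ± 0.58 (adjusted p = 0.018), in 6 of 6 animals. Without the Peyer array of animal 71 its difference was 2.28 ± 0.50 (adjusted p = 0.00083), while without animal 70 it was 1.32 and no longer called (adjusted p = 0.11), and without animal 68 it was 1.58 (adjusted p = 0.072). In the fit of the 12 Peyer and Jejunum arrays alone it was also not called (adjusted p = 0.067), and with normexp it was 0.05. COL6A1 and COL11A2 were not called when arrays were centred on their medians or quantile normalized, with differences of -0.88 and -0.91 for COL6A1 and of -1.0 and -0.93 for COL11A2.

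Without the Peyer array of animal 71, 7 collagen genes were called between Peyer and Jejunum. COL3A1 at -1.15 ± 0.32, COL4A2 at -1.11 ± 0.16 and COL12A1 at -1.07 ± 0.36 then joined those called lower. Smooth muscle markers moved with the comparison here too: their genes averaged 2.04 to 5.43 on Peyer arrays and 4.06 to 5.46 on Jejunum arrays, and 6 of 9 were called lower. All 6 B cell markers were called higher in Peyer, with a median difference of 6.45. Their part in the collagen differences was not tested.

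The remaining comparisons set tissues on different slides against each other, so slide set and tissue cannot be told apart in them. All 6 comparisons share arrays, and each is given with its own values. Jejunum had 9 collagen genes higher and 2 lower than Liver (32.2% of all gene names were called, 17.9% higher and 14.3% lower), with a median difference of 0.72 against 0.03 over all probes. COL7A1 was higher in Jejunum by 2.0 ± 0.17, COL4A5 by 1.90 ± 0.41, COL12A1 by 1.90 ± 0.34 and COL27A1 by 1.71 ± 0.18, with adjusted p between 3.1e-10 and 0.00036. COL6A3 at 1.62 ± 0.22, COL4A1 at 1.43 ± 0.18, COL5A1 at 1.33 ± 0.20, COL16A1 at 1.31 ± 0.23 and COL5A3 at 1.08 ± 0.25 were also called. With normexp the calls of COL4A5 at 0.31, COL5A3 at 0.08 and COL5A1 at 0.98 were lost.

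COL18A1 was lower in Jejunum than in Liver, at -2.61 ± 0.15 (adjusted p = 2.5e-13), as was COL29A1, at -1.32 ± 0.14 (adjusted p = 1.9e-08). With the authors' values 7 calls of this comparison were lost, among them that of COL18A1, at -0.31 (limma, adjusted p = 0.11). Under the fold limit or the adjusted p lay COL5A2 at 0.95 ± 0.15, COL1A1 at 0.72 ± 0.32, COL3A1 at 0.69 ± 0.32, COL4A2 at 0.56 ± 0.20, COL1A2 at 0.53 ± 0.33, COL6A1 at 0.84 ± 0.25 and COL6A2 at -0.61 ± 0.26. The COL6A2 probes ran from -0.61 to 1.68, and 2 of 3 were called higher in Jejunum.

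Peyer had 6 collagen genes higher and 5 lower than Liver (40.1% of all gene names were called, 19.8% higher and 20.4% lower), with a median difference of 0.33 against -0.04 over all probes. COL19A1 was at least 1.22-fold higher in Peyer. COL7A1 was higher by 2.19 ± 0.17, COL4A5 by 1.56 ± 0.41, COL27A1 by 1.56 ± 0.18, COL6A3 by 1.43 ± 0.22 and COL5A2 by 1.02 ± 0.15, with adjusted p between 5.7e-11 and 0.0019. COL18A1 was lower in Peyer, at -3.27 ± 0.15 (adjusted p = 3.4e-15), followed by COL29A1 at -2.05 ± 0.14, COL11A2 at -1.54 ± 0.30 and COL6A2 at -1.33 ± 0.26. With the authors' values 6 calls of this comparison were lost, among them that of COL18A1, at -0.94 and so under the fold limit. The COL11A2 probe was well above background on 3 of 6 Peyer arrays, so its difference rests partly on signals near background. COL2A1 and COL28A1, well above background on no array, had means of -7.94 and -8.19 in Peyer, against -7.07 and -7.15 in Liver. COL4A3 counts as called as well, but was well above background on no array of either tissue. With normexp the collagen median was -0.20, against -0.39 over all probes, and COL4A5 and COL19A1 were no longer higher in Peyer, at -0.00 and -0.31. It also moved the share of higher genes among all called probes to 30.8%, against 47.9% in the main setting. The 3 COL6A2 probes ran from -1.33 to 0.68 with 1 of them called, and with the mean of all probes of a gene COL6A2 at -0.06, COL6A3 at 0.68 and COL5A2 at 0.86 were not called.

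COL5A1 at 0.95 ± 0.20, COL4A1 at 0.59 ± 0.18, COL1A1 at 0.42 ± 0.32, COL6A1 at -0.22 ± 0.25, COL1A2 at -0.25 ± 0.33, COL3A1 at -0.30 ± 0.32 and COL4A2 at -0.36 ± 0.20 were not called between Peyer and Liver. Of these, COL5A1 and COL4A1 passed the adjusted p but not the fold limit.

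Peyer had 3 collagen genes higher and 9 lower than Spleen (25.7% of all gene names were called, 9.7% higher and 16% lower), with a median difference of -0.56 against -0.18 over all probes. COL4A3 was at least 4.90-fold lower in Peyer. COL11A2 was lower at -3.44 ± 0.30, COL21A1 at -2.87 ± 0.30 and COL19A1 at -1.79 ± 0.58, with adjusted p between 1.8e-09 and 0.011. Both COL4A3 and COL19A1 passed the background filter through Spleen alone, so their calls are not read as support. COL4A2 at -1.38 ± 0.20, COL1A2 at -1.32 ± 0.33 and COL18A1 at -1.03 ± 0.15 were lower too, as were COL8A2 and COL5A3. COL4A5 at 1.62 ± 0.41, COL14A1 at 1.56 ± 0.28 and COL29A1 at 1.55 ± 0.14 were higher in Peyer. COL1A1 at 0.59 ± 0.32, COL3A1 at -0.55 ± 0.32, COL4A1 at -0.44 ± 0.18, COL5A1 at -0.41 ± 0.20, COL5A2 at -0.30 ± 0.15, COL6A1 at -0.76 ± 0.25, COL6A2 at -0.92 ± 0.26 and COL6A3 at -0.40 ± 0.22 were not called. Without the Peyer array of animal 71, 14 genes were called, with COL8A1 at -1.13 ± 0.48 (adjusted p = 0.049) and COL6A2 at -1.0 ± 0.27 (adjusted p = 0.0037) added, and COL19A1 was at -1.28 ± 0.50 (adjusted p = 0.034). The COL18A1 call was lost under median centring, at -0.77, and with normexp, at -0.96, and turned to 0.92 with the authors' values. That of COL4A5 was lost with normexp, at 0.24, and that of COL5A3 under median centring, at -0.84, and quantile normalization, at -0.81. With gene names in any letter case a different probe stood for COL5A3, at -0.44 (adjusted p = 0.17), and was not called. Median centring moved the share of higher genes among all called probes to 55.5%, against 37.3% at the 75th percentile.

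Spleen and Jejunum differed least in their collagen median, 0.03 against 0.16 over all probes, yet single genes lay far apart. Spleen had 4 genes higher and 3 lower (30.1% of all gene names were called, 16% higher and 14.1% lower). COL21A1 was higher in Spleen by 2.90 ± 0.30 (adjusted p = 2e-08) and COL11A2 by 2.26 ± 0.30 (adjusted p = 8.8e-07). COL19A1 was higher by 3.56 ± 0.58 and COL4A3 at least 3.37-fold, but both passed the background filter through Spleen alone. COL29A1 was lower in Spleen at -2.27 ± 0.14, COL14A1 at -2.01 ± 0.28 and COL4A5 at -1.96 ± 0.41. COL19A1 was well above background on only 2 of 6 Jejunum arrays, so its difference rests largely on Jejunum signals near background. With normexp COL4A5 at -0.55 and COL4A3 at 0.87 lost their calls. COL1A1 at -0.89 ± 0.32, COL1A2 at 0.54 ± 0.33, COL3A1 at -0.44 ± 0.32, COL4A1 at -0.40 ± 0.18, COL4A2 at 0.47 ± 0.20, COL5A1 at 0.03 ± 0.20, COL5A2 at 0.37 ± 0.15, COL6A1 at -0.29 ± 0.25, COL6A2 at 0.19 ± 0.26, COL6A3 at 0.22 ± 0.22 and COL18A1 at 0.37 ± 0.15 were not called.

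Collagen levels also varied between animals within a tissue. The 8 fibrillar genes averaged -0.56 on the Peyer array of animal 70 and 0.52 on that of animal 71, with the other 4 between 0.02 and 0.17. In Spleen the mean ran from 0.27 in animal 70 to 1.21 in animal 68, in Jejunum from 0.10 in animal 75 to 0.96 in animal 68, and in Liver from -0.51 in animal 70 to 0.20 in animal 71. The 2 Liver arrays with the highest fibrillar means, animals 69 and 71, carried COL1A1 at 4.50 and 4.60, against 2.51 to 3.10 in the other 4. The same 2 arrays were highest for COL1A2, at 3.35 and 3.47, and for COL3A1, at 4.23 and 4.43.

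Animal 70 had the lowest level for 12 of 27 collagen genes in Peyer and for 15 in Spleen, and animal 75 for 14 in Jejunum, against 11 in Liver. Animal 71 had the highest level for 16 genes in Peyer and 11 in Liver, and animal 68 for 12 in Spleen. Tested beside tissue with a limma F-test, an animal effect was called for COL5A1 (adjusted p = 0.027) and COL21A1 (adjusted p = 0.019), 2 of 27 genes, where 5.94% of all gene names were called. COL1A2 did not pass, with an adjusted p of 0.055. The 5 basement membrane genes averaged -1.56 to -0.50 on Peyer arrays and -0.22 to 0.33 on Spleen arrays, and animals 70 and 71 again marked the ends in Peyer.

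**Figure D4:**
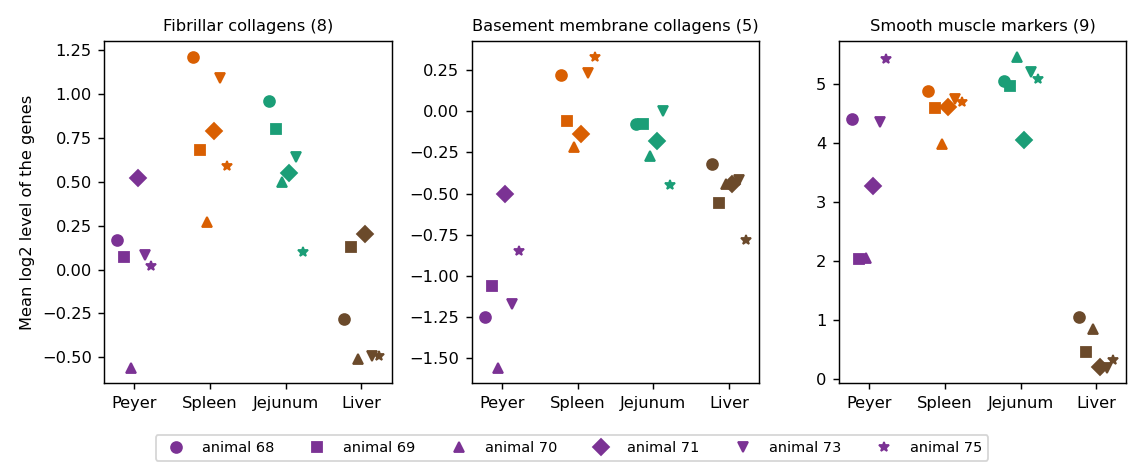
Mean log2 level (y axis) per array of the 8 fibrillar genes, the 5 basement membrane genes and 9 smooth muscle marker genes in Peyer, Spleen, Jejunum and Liver (x axis). Each symbol is an animal. Smooth muscle markers are at 0.19 to 1.06 in Liver and at 2.04 or more elsewhere, while the fibrillar means of Peyer and Liver overlap, and animals 70 and 71 are the lowest and highest Peyer arrays for both collagen classes.

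Several genes had more than 1 tested probe (13 of the 27), and for a few of them the probes went apart. Some of the 60-base probes hold the repeat by which collagen genes code for the triple helix, in which a glycine codon recurs every 9 bases. The search was for GGN followed by 6 other bases, at least 6 times in a row. It found 6 of 77 collagen probes (7.79%) and 13 of all 60305 probes (0.0216%) on the probe strand. They are printed 5′ to 3′ as deposited, with the glycine codons of the run in capitals, because the genes whose probes were called in opposite directions are among them.
COL17A1: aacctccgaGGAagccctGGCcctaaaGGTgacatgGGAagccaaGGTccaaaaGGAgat
COL21A1: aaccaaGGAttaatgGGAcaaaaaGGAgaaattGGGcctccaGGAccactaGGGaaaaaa
COL7A1: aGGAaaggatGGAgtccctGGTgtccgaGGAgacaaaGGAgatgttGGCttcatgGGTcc
COL11A2: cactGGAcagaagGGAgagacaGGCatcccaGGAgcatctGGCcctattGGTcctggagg
COL1A2: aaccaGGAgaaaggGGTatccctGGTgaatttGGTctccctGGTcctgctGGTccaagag
COL8A1: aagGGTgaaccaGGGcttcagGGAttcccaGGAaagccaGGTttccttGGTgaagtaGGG

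COL17A1 encodes the membrane collagen of hemidesmosomes, which fasten epithelial cells to their basement membrane. Its repeat probe is the brightest of 3 and so stands for the gene, with means of -2.75 ± 0.57 in Peyer, -2.19 ± 0.42 in Spleen, -2.51 ± 0.20 in Jejunum, against -3.27 ± 0.18 in Liver (SD, n = 6). The nearest other COL17A1 probe in brightness had means of 0.25 in Peyer and -4.77 in Spleen, -0.22 in Jejunum, against -6.76 in Liver, and was well above background on no Liver array. The dimmest had -4.27 in Peyer, -6.63 in Spleen, -3.36 in Jejunum, against -5.27 in Liver. So the repeat probe differed little between tissues, and the other 2 were high in both gut tissues and low in Spleen and Liver. For Spleen minus Liver the repeat probe was called higher, by 1.07 ± 0.21, a further probe was called higher too, by 1.99, and the dimmest was called lower, by a difference of -1.36. The further probe was well above background on no Liver array, and the dimmest on no Spleen array and 2 of 6 Liver arrays, so both differences are set against background. With the mean of its 3 probes the difference was 0.57 and not called, and Peyer minus Spleen became 2.27 and Jejunum minus Liver 3.07.

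COL21A1 showed the split the other way round. Its brightest probe and another probe outside the repeat were both high in Spleen, with means of 1.28 and -0.88, against -1.81 and -4.26 in Liver. The repeat probe had -5.56 in Peyer, -2.63 in Spleen, -5.41 in Jejunum, against -1.22 in Liver, and was called lower in Spleen than in Liver while the other 2 were called higher. With the mean of its tested probes, COL21A1 was -1.22 for Peyer minus Liver and -1.21 for Jejunum minus Liver, in place of 0.23 and 0.20. For COL7A1, the repeat probe had -3.40 in Peyer, -2.77 in Spleen, -2.38 in Jejunum, against -4.71 in Liver, lowest in Liver like the brightest probe, and it was another, dim probe that was called lower in Peyer than in Liver, at -1.04. The COL1A2 repeat probe averaged 2.77 in Spleen and -0.04 in Liver, and was called higher in Spleen like the other 3 COL1A2 probes. For COL11A2 the repeat probe is the only one, so every COL11A2 result rests on it and could not be set against another probe.

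Opposite calls among probes of a collagen gene were found for COL17A1 and COL21A1 between Spleen and Liver and for COL7A1 between Peyer and Liver, and in none of the other 4 comparisons. On the reverse strand the same run occurred in 5 of 60305 probes. Of these, 2 are the single probes of COL9A1 and COL11A1, whose reverse complements hold 7 glycine codons in a row, and both genes were among the 7 left out. Whether these 2 probes read the sense transcript was not tested, so their signal is not read as a level of the genes. Their signal was well above background on at most 5 of 6 arrays of any tissue.

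**Figure D5:**
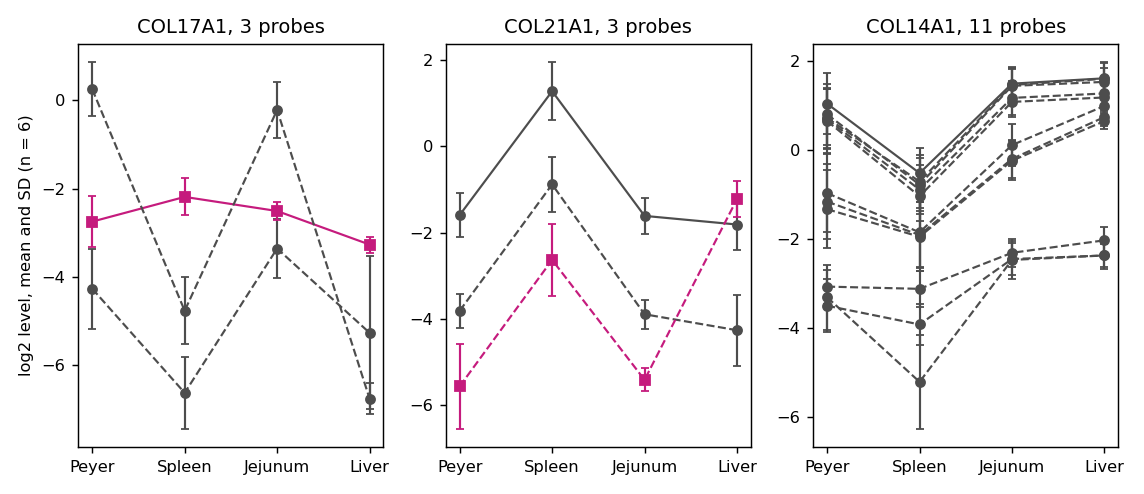
Mean log2 level with SD (y axis, n = 6) of each tested probe of COL17A1, COL21A1 and COL14A1 in Peyer, Spleen, Jejunum and Liver (x axis). Pink squares are probes with at least 6 glycine codons in a row, grey circles are other probes, and the solid line is the probe that stands for the gene. The 11 COL14A1 probes each have their lowest mean in Spleen, by 0.04 to 1.89 under Peyer. The pink probe of COL17A1 lacks the dip of the grey ones in Spleen, and that of COL21A1 is at its highest in Liver.

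The counts of the following lists read against the shares of all gene names called, 38.5% for Spleen minus Liver and 13.3% for Peyer minus Jejunum. Of 14 tested genes for enzymes and chaperones that fold and modify collagen chains, 4 were higher and 2 lower in Spleen than in Liver, a share near that of all gene names, with a median difference of -0.08. P4HB, the shared subunit of prolyl 4-hydroxylase, was lower in Spleen at -2.09 ± 0.16, and its catalytic partner P4HA2 at -1.98 ± 0.21, while the prolyl 3-hydroxylase LEPREL2 was higher at 1.89 ± 0.25. Between Peyer and Jejunum, 0 of 14 were higher and 2 lower, PLOD1 (a lysyl hydroxylase) at -1.64 ± 0.26 and P4HA2 at -1.08 ± 0.21, and P4HB was at -0.98 ± 0.16. Of 8 genes for procollagen cutting and crosslinking, 1 was higher and 1 lower in Spleen than in Liver, the crosslinking enzyme LOXL2 at 2.42 ± 0.33 and the proteinase enhancer PCOLCE at -1.04 ± 0.18. Of the 8, 0 were called by limma between Peyer and Jejunum, 3 at an unadjusted p under 0.05, where LOXL2 at -0.88 ± 0.33 (adjusted p = 0.035) and PCOLCE2 at 0.72 ± 0.29 (adjusted p = 0.048) passed the adjusted p alone and LOX was at -0.80 ± 0.40 (adjusted p = 0.11).

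Collagen breakdown genes differed widely between Spleen and Liver. Of 15 genes, 8 were higher and 2 lower in Spleen, with a median of 1.03. The matrix metalloproteinases MMP3 and MMP10 were at least 3.43-fold and 3.15-fold higher in Spleen, and MMP7 was at least 101-fold lower. Between Peyer and Jejunum only MMP12, the macrophage elastase, was called, higher in Peyer by 4.55 ± 0.93 (adjusted p = 0.00072). MMP3 was at -0.67 ± 0.36 and MMP9 at 0.64 ± 0.20.

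Of 5 collagen receptors tested, 2 were higher in Spleen than in Liver, the discoidin domain receptors DDR2 at 1.71 ± 0.21 and DDR1 at 1.37 ± 0.17, and ITGB1 (integrin beta chain) was at 0.38 ± 0.16. Between Peyer and Jejunum 1 of 5 was lower, the integrin chain ITGA2 at -1.11 ± 0.28, and DDR1 was at -0.88 ± 0.17 and ITGB1 at -0.80 ± 0.16. Of 14 collagen-binding matrix proteins, 3 were higher and 4 lower in Spleen than in Liver. Tenascin C (TNC) was higher in Spleen by 5.06 ± 0.19, and fibulin FBLN1 at -6.53 ± 0.15 and dermatopontin (DPT) at -5.55 ± 0.48 were lower. In Peyer against Jejunum 2 of 14 were lower, DPT at -1.48 ± 0.48 and asporin (ASPN) at -1.36 ± 0.45, and periostin (POSTN) was at -0.89 ± 0.30.

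The basement membrane partners of type IV collagen went both ways. Of 9 laminin, nidogen and related genes, 2 were higher and 3 lower in Spleen than in Liver. The laminin chain LAMA4 was higher at 2.07 ± 0.24, and nidogen NID1 at -2.23 ± 0.19 and LAMB1 at -1.68 ± 0.32 were lower. Between Peyer and Jejunum 2 of 9 were lower, among them LAMB1 at -1.89 ± 0.32, with LAMB2 at -0.86 ± 0.21 and a list median of -0.59. Of 9 genes for TGF-beta ligands and profibrotic factors, 3 were higher and 0 lower in Spleen than in Liver, a share near the 38.5% of all gene names, TGFB1 at 2.60 ± 0.17, its receptor TGFBR1 at 1.90 ± 0.24 and TGFB3 at 1.04 ± 0.23. TGFB1 at 1.23 ± 0.17 and TGFBR1 at 1.24 ± 0.24 were also higher in Peyer than in Jejunum, while CCN2 was at -0.66 ± 0.45.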

How the data were processed

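The scanner files hold background-subtracted processed signals as intensity, made with Agilent Feature Extraction 10.10.1.1 per the submitters' processing notes and not normalized between arrays. The authors' deposited table holds log2 values for 44600 probes. The sorted values of its 24 columns are identical, limma is named for the step without a version, and no source used here gives its centring, so it served as an alternative only. Across slide sets its differences followed the scanner's less closely (r = 0.318 to 0.71 over 42342 probes, against 0.961 and 0.965 within slides; direction and log2 scale fitted).

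Here log2 processed signals were set against each array's 75th percentile. Probes well above background on all 6 arrays of a tissue and without outlier flags (136 had one) were kept, 42650 of 60305; none was saturated. limma 3.58.1 (R 4.3.3; lmFit, eBayes) was fitted to 24 arrays with tissue as the term, with 20 residual degrees of freedom, with Benjamini-Hochberg adjusted p-values over all probes kept. Shares called use 1 probe per gene name. The script was tested on simulated data. The number of arrays limits the precision.

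A bound ("at least N-fold") sets the bright tissue's mean against, per array of the dim tissue, the higher of the probe's signal and the lowest signal among probes well above background. No fold is given where both are at background. Gene names are those of the array, matched to collagens in capitals, and 32 of 34 are in the RefSeq table. Sequences are those in the scanner files.

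The labels number the animals, and each gave all 4 tissues. For 36 same-animal array pairs, deviations from the tissue means had a mean r of 0.17 (26 over 0.1, lowest -0.021), against -0.034 for 180 pairs from different animals. Slides 1 to 3 held Spleen and Liver, and slides 4 to 6 Peyer and Jejunum.

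The members, lists and tests were chosen with earlier results of these data known. Named by rule were the 4 called genes with the highest and the 4 with the lowest difference per comparison, a fixed set of main chains (types I, III, V, IV, VI and XVIII), and up to 3 genes per list. Alternatives covered scaling, background, source of values, filter, probe, arrays, blocks and letter case of gene names. The value of 1 gene of these lists is not reported here.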

Additional observations from a re-analysis of the deposited data

Results flagged for a closer look

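Of 108 groups of 6 arrays (27 genes in 4 tissues), 4 held an array far from the other 5 by Dixon's test, a share no larger than the 1 in 20 groups that chance alone flags. COL6A3 in Peyer was 1.09 in animal 70, against 2.05 to 2.31 on the other arrays, all well above background. COL8A2 in Peyer was -2.33 in animal 71, against -4.04 to -3.46. COL5A3 in Liver was -2.67 in animal 75, against -4.81 to -4.10, with 4 of 6 arrays well above background. COL19A1 in Liver was -6.51 in animal 73, against -7.27 to -7.12, and was well above background on no Liver array.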

How the results depend on the processing

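Between Peyer and Jejunum 4 genes were called, with 2 under median centring, 2 under quantile normalization, 0 with normexp (limma; 16 at an unadjusted p under 0.05), 0 with the authors' values (12 at an unadjusted p under 0.05), 1 among genes above background on all 24 arrays, 7 without the Peyer array of animal 71, and 3 to 7 leaving out each animal. For Spleen minus Liver 18 became 11 with normexp (15 to 19 leaving out animals). With the authors' values Peyer minus Spleen had 3 of 12, Jejunum minus Liver 6 of 11 and Peyer minus Liver 4 of 11. Among genes above background on all 24 arrays, Peyer minus Spleen had 6, Peyer minus Liver 7 and Spleen minus Jejunum 3 of 7. Leaving out animals gave 11 to 13, 11 to 12, 11 to 12 and 7 to 9 for Peyer minus Spleen, Jejunum minus Liver, Peyer minus Liver and Spleen minus Jejunum. The animal effect, called for 2 genes, was 1 with normexp, with the authors' values and with no filter, 0 with the mean of all probes (10 at an unadjusted p under 0.05), and 1 to 2 leaving out animals. With the replicate block (animal) the counts were 4, 18, 12, 11, 11 and 7 as without it, and it changed no call. Reversed were, with normexp, Peyer minus Liver for COL4A5 (-0.00) and COL19A1 (-0.31); with the authors' values, COL4A5 in Jejunum minus Liver (-0.17), Peyer minus Liver (-0.17), Peyer minus Spleen (-0.03) and Spleen minus Jejunum (0.02), COL4A3 (0.38) and COL11A2 (0.36) in Peyer minus Liver, and COL18A1 in Peyer minus Spleen (0.92) and Spleen minus Jejunum (-1.54); with the mean of all probes, COL21A1 in Jejunum minus Liver (-1.21) and Peyer minus Liver (-1.22), and COL17A1 in Peyer minus Spleen (2.27) and Spleen minus Jejunum (-2.50). The cause was not tested. Over 2793 single-gene values under alternatives, 2645 stayed on their side of the call threshold with no called value changing sign, 86 lost a call, 48 gained one and 14 reversed. Differences that were not called could change sign uncounted. Counting gene names in any letter case was chosen after seeing the data. Genes near background, COL4A3, COL19A1, COL4A5, COL11A2 and COL5A3, are limited by signal over background.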

Other observations

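The array writes 2 further collagen genes in mixed letters, which the naming rule leaves out. Col15a1 encodes a basement membrane collagen of muscle and vessels, and was well above background on all 24 arrays, with mean levels of 0.44 ± 0.76 in Peyer, -0.08 ± 0.21 in Spleen, 1.13 ± 0.25 in Jejunum, against -2.71 ± 0.50 in Liver (SD, n = 6). It was higher than in Liver by 3.84 ± 0.27 in Jejunum, 3.15 ± 0.27 in Peyer and 2.62 ± 0.27 in Spleen (limma, SE), and lower in Spleen than in Jejunum at -1.21 ± 0.27 (adjusted p = 0.00047). It was not called for Peyer minus Jejunum, at -0.69 ± 0.27, or for Peyer minus Spleen, at 0.52 ± 0.27. Liver was the low tissue for Col15a1 and the high tissue for COL18A1, the related basement membrane collagen. Col22a1 was well above background on at most 1 array of any tissue. With gene names in any letter case, different probes stood for COL5A3 and COL16A1. COL5A3 was then called higher in Peyer than in Liver, at 1.95, and not called for Peyer minus Spleen, at -0.44. COL16A1 was then called higher than in Liver in Peyer, at 1.24, and in Spleen, at 1.14.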
